A study of Mus musculus with 11 samples.

Results

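The 10 genes described here encode the enzymes that turn arachidonic acid into prostaglandins, thromboxane and leukotrienes, in alveolar macrophages sorted from newborn mouse lungs. They are the cyclooxygenases Ptgs1 and Ptgs2, the 5-lipoxygenase arm Alox5, Alox5ap, Ltc4s and Lta4h, and the terminal prostanoid synthases Tbxas1, Ptges, Ptges3 and Hpgds. They were chosen by name out of 57180 counted genes, and all 10 were found by symbol. The choice was made with hyperoxia and normoxia levels of these libraries known, so those levels are given as a description, without a test on the 10 genes. Tests on them are given for sex and for the difference between the responses of the sexes, which the choice did not use.

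Pups of wild-type C57BL/6 mice breathed 95% oxygen (hyperoxia) on postnatal days 1 to 5 or were kept in normoxia, and alveolar macrophages were sorted by flow cytometry from lung homogenates on day 7. The groups were hyperoxia male (HM, 2 libraries, replicates 2 and 3), hyperoxia female (HF, 3 libraries), normoxia male (NM, 3 libraries) and normoxia female (NF, 3 libraries), 11 libraries in all. The labels do not say whether replicates are separate animals or pools, so p-values measure the spread between libraries, which may be partly technical. The study's title names sex as a biological variable.

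Arachidonic acid is cut from membrane lipids by phospholipases and then takes one of several routes. The cyclooxygenases convert it to prostaglandin H2, which thromboxane synthase and the prostaglandin synthases turn into their own products. Alternatively 5-lipoxygenase, which works with its membrane partner FLAP (the product of Alox5ap), makes leukotriene A4, which Lta4h converts to the neutrophil attractant leukotriene B4 and Ltc4s to the cysteinyl leukotriene C4. Resident alveolar macrophages are known for high 5-lipoxygenase activity.

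Levels are given in CPM, the deposited read counts of a gene relative to the library's scaled size. Total counts ran between 18087948 and 32579468 per library. A count of 3, used here as the floor, was worth 0.0880 to 0.160 CPM. Of 12 alveolar macrophage markers listed to check the label, all were counted in every library, and their levels summed to 5051 to 7002 CPM in hyperoxia libraries and 4601 to 7767 CPM in normoxia libraries. Between oxygen groups 2 of the 12 were called lower and 0 higher, beside 0.165% of all tested genes called lower and 0.541% higher, where called means an adjusted p under 0.05 in edgeR's quasi-likelihood test. Of the log2 fold changes of the 12 markers, hyperoxia over normoxia, 2 were above 0, with a median of -0.24. The libraries HF2, HF3, NM3 and NF3 stood apart, with 33158 to 35530 genes having a count, against 26856 to 30173 in the other 7.

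Ptgs1 encodes cyclooxygenase-1, the form that most tissues make constitutively. It had 39.6 and 53.4 CPM in HM2 and HM3 and 47.9, 58.2 and 39.1 CPM in HF1 to HF3, against 19.9, 15.4 and 10.9 CPM in NM1 to NM3 and 22.9, 20.03 and 16.2 CPM in NF1 to NF3. Every hyperoxia library stood above every normoxia library, in both sexes. The means were 47.6 ± 8.42 CPM in hyperoxia (SD, n = 5) and 17.6 ± 4.26 CPM in normoxia (SD, n = 6), a ratio of 2.71, and the counts behind them were 1005 to 1985 per hyperoxia library and 212 to 721 per normoxia library. The fitted log2 fold change over both sexes was 1.44 ± 0.18 (SE), with 1.59 ± 0.27 in males and 1.29 ± 0.25 in females. In bulk RNA, a shift in the share of cells that carry a transcript cannot be told apart from a shift in the transcript per cell.

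CPM ranges that did not overlap between hyperoxia and normoxia occurred in 2.16% of the 19948 genes that passed a filter on low counts. Ptgs1 was the 1 enzyme with such a gap of the 9 that passed, and nothing is read from that count, since the choice of genes used these values.

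Ptgs2 encodes cyclooxygenase-2, the inducible form. It had 1 count each in HM2 and HM3 and 2, 8 and 5 counts in HF1 to HF3, against 3, 2 and 10 counts in NM1 to NM3 and 0, 2 and 8 counts in NF1 to NF3. The highest level was 0.516 CPM, in NM3, and 4 of the 11 libraries were over the floor of 3 counts. Those 4 were HF2, HF3, NM3 and NF3, the libraries with most detected genes, and whether that property has a part in the Ptgs2 counts was not tested. Ptgs2 did not pass the filter and was not tested, so no difference between its groups is read from these few counts. In every library nearly all counts of the pair came from Ptgs1.

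**Figure D1:**
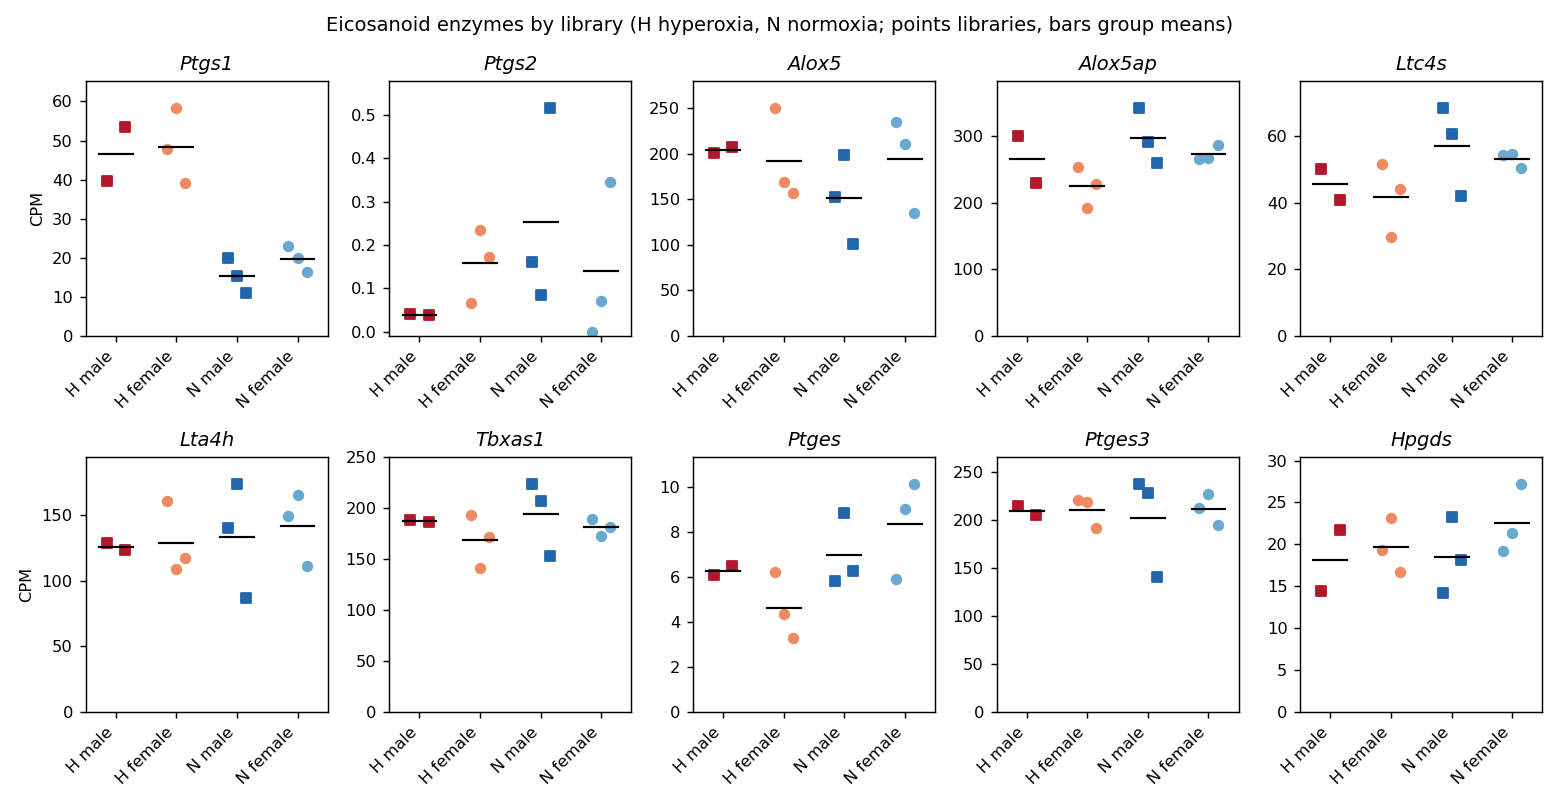
Levels of the 10 enzymes in CPM (vertical axis, from 0, with its own scale in each panel) by group, where each point is 1 library and each bar a group mean. Hyperoxia Ptgs1 libraries sit between 39.1 and 58.2 CPM and normoxia ones between 10.9 and 22.9 CPM, while the other panels show groups that overlap over both sexes.

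The promoters of both cyclooxygenases are shown because their levels differ so widely, and that of Hpgds because it shares 8 letters with Ptgs1. Each line gives the 250 bases before the gene's start, 5′ to 3′ on the gene's strand, from RefSeq on build GRCm38.p6. Ptgs1 is read on the plus strand at chr2:36230176-36230425, Ptgs2 on the plus strand at chr1:150099781-150100030 and Hpgds on the minus strand at chr6:65144731-65144980. Capitals mark GAGGAAGT, the letters of a PU.1-type ETS site, in Ptgs1 and Hpgds, and GGGCGG, a GC box, in Ptgs2.
Ptgs1: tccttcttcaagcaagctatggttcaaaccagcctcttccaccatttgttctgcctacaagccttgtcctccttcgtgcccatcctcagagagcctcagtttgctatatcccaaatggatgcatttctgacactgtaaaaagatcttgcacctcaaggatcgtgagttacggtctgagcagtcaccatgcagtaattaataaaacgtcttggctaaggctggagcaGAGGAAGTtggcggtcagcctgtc
Ptgs2: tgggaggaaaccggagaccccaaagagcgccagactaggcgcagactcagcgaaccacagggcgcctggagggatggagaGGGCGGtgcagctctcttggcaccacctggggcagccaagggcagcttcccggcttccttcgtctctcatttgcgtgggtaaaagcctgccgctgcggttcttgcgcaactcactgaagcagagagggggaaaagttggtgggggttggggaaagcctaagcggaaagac
Hpgds: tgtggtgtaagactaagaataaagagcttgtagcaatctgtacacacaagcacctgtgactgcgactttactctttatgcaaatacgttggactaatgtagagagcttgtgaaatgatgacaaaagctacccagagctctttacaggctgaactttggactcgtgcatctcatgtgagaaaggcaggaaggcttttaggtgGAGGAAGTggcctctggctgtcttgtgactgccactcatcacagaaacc

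The motifs were chosen after the sequences were seen, so nothing is read from how many enzymes held them. On either strand, GAGGAAGT occurred in 2.44% of the 32851 promoters of this length in the table. Of the 9 enzymes listed there, Ptgs1 (positions -24 to -17 from the start) and Hpgds (-49 to -42) held it. The shorter core GGAAGT, which lies inside GAGGAAGT, occurred in 19.7% of promoters and also in that of Ltc4s (-116 to -111). GGGCGG occurred in 32.7% of promoters and in those of Ptgs2 (-170 to -165), Ptges, Alox5 and Ptges3, and TATAAA occurred in 12.4% and in that of Tbxas1. The promoter of Lta4h held none of these letters. Alox5ap was not in the table. Whether these letters have a part in the level of either gene was not tested. A match describes letters, not binding.

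The 5-lipoxygenase arm was highly expressed in both oxygen groups. Alox5ap, the gene of FLAP, had 300.0 and 229.9 CPM in HM2 and HM3 and 253, 192 and 228 CPM in HF1 to HF3, against 341, 290 and 259 CPM in NM1 to NM3 and 265, 267 and 286 CPM in NF1 to NF3. The male libraries overlapped between oxygen groups, while each hyperoxia female library was below each normoxia female library. The share of all genes with such a gap in females was not computed, so nothing is read from it. The log2 fold change over both sexes was -0.22 ± 0.17 (SE), with -0.16 ± 0.26 in males and -0.28 ± 0.23 in females. Without HM3 the male value was 0.036, and without the 4 libraries with most detected genes the female value was -0.072. Those fits keep only HM2 and only HF1 in the hyperoxia group of that sex.

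Alox5, the gene of 5-lipoxygenase itself, had 201 and 207 CPM in HM2 and HM3 and 250.1, 169.7 and 157.6 CPM in HF1 to HF3, against 153, 199 and 102 CPM in NM1 to NM3 and 236, 211 and 136 CPM in NF1 to NF3. Both hyperoxia male libraries were above all 3 normoxia male libraries, and female libraries overlapped. The share of all genes with such a gap in males was not computed, so nothing is read from it. The log2 fold change was 0.43 ± 0.32 (SE) in males and -0.01 ± 0.29 in females.

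Ltc4s, leukotriene C4 synthase, had 50.1 and 41.0 CPM in HM2 and HM3 and 51.7, 29.6 and 44.2 CPM in HF1 to HF3, against 68.4, 60.8 and 41.9 CPM in NM1 to NM3 and 54.4, 54.8 and 50.5 CPM in NF1 to NF3. The groups overlapped in both sexes, and the log2 fold change over both was -0.34 ± 0.18 (SE). Lta4h, leukotriene A4 hydrolase, had 129 and 123 CPM in HM2 and HM3 and 161, 109 and 117 CPM in HF1 to HF3, against 140.3, 173.7 and 87.0 CPM in NM1 to NM3 and 149, 165 and 111 CPM in NF1 to NF3. Its groups overlapped too, with a log2 fold change of -0.11 ± 0.20 (SE). An antisense gene, Gm26542, shares 268 exon bases with Ltc4s and had at most 82 counts in a library, against at least 812 for Ltc4s, so a part of the Ltc4s counts is uncertain. Antisense genes over exons of Ptgs1, Alox5ap and Tbxas1 had at most 10 counts in a library.

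Tbxas1, thromboxane A synthase, had 188 and 186 CPM in HM2 and HM3 and 193, 141 and 171 CPM in HF1 to HF3, against 223, 207 and 153 CPM in NM1 to NM3 and 189, 172 and 181 CPM in NF1 to NF3. The ranges overlapped in both sexes, with a log2 fold change of -0.08 ± 0.17 (SE). Hpgds, the hematopoietic prostaglandin D synthase, had 14.5 and 21.7 CPM in HM2 and HM3 and 19.3, 23.1 and 16.7 CPM in HF1 to HF3, against 14.2, 23.2 and 18.1 CPM in NM1 to NM3 and 19.1, 21.4 and 27.2 CPM in NF1 to NF3. Its log2 fold change was -0.11 ± 0.18 (SE), and its groups overlapped.

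Ptges and Ptges3 make prostaglandin E2, Ptges as the inducible microsomal synthase and Ptges3 as the cytosolic one, which is also the p23 co-chaperone of Hsp90. Ptges had 6.07 and 6.47 CPM in HM2 and HM3 and 6.201, 4.34 and 3.26 CPM in HF1 to HF3, against 5.82, 8.83 and 6.24 CPM in NM1 to NM3 and 5.88, 9.0 and 10.1 CPM in NF1 to NF3. The female libraries overlapped only through HF1 and NF1. The log2 fold change was -0.15 ± 0.32 (SE) in males and -0.85 ± 0.28 in females, and -0.50 ± 0.21 over both sexes, on 95 to 187 counts per hyperoxia library and 109 to 253 per normoxia library. Without the 4 libraries with most detected genes the female value was -0.26, with HF1 as the only hyperoxia female library left.

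Ptges3 averaged 210 ± 11.8 CPM in hyperoxia (SD, n = 5) and 206 ± 35.7 CPM in normoxia (SD, n = 6), with a log2 fold change of 0.03 ± 0.18 (SE). The normoxia spread came largely from NM3, at 140.0 CPM, the other 5 normoxia libraries lying between 194 and 237 CPM. A pseudogene, Ptges3-ps, is identical to Ptges3 over 480 bases and took up to 165 counts in a library, so the split of reads between the copies is uncertain.

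Over the 9 tested enzymes, 3 log2 fold changes between hyperoxia and normoxia were above 0 (Ptgs1, Alox5 and Ptges3) and the median was -0.11. Over all tested genes 45.9% were above 0 and the median was -0.03.

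**Figure D2:**
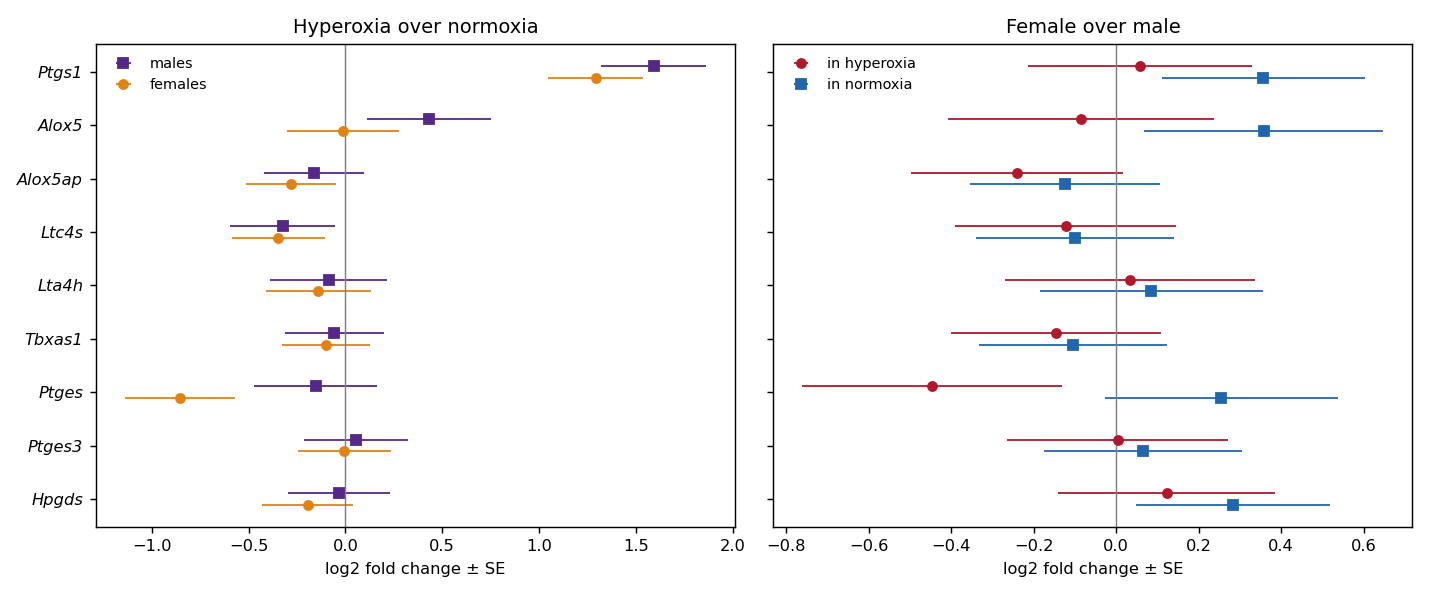
Fitted log2 fold changes (horizontal axis, points, with SE bars) of the 9 tested enzymes, hyperoxia over normoxia in each sex on the left and female over male in each oxygen group on the right. Ptgs1 lies at 1.59 in males and 1.29 in females on the left, and on the right the fold changes lie between -0.45 and 0.36.

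To compare enzymes with each other, CPM was divided by the exon length of the gene in kilobases. Per kilobase, Alox5ap was highest in both oxygen groups, at 169 ± 27.9 CPM per kb in hyperoxia (SD, n = 5) and 200.5 ± 21.3 CPM per kb in normoxia (SD, n = 6). Ptges3 came next, at 94.6 ± 5.32 CPM per kb in hyperoxia and 93.0 ± 16.1 in normoxia. The hyperoxia ranges of those genes, 135 to 211 and 86.4 to 99.2 CPM per kb, did not overlap.

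Alox5 and Ltc4s followed and overlapped each other: Alox5 had 48.0 ± 8.81 CPM per kb in hyperoxia and 42.04 ± 12.4 in normoxia, and Ltc4s had 42.7 ± 8.68 in hyperoxia and 54.4 ± 8.86 in normoxia. Lta4h (20.9 ± 3.26 CPM per kb in hyperoxia, 22.6 ± 5.41 in normoxia) and Tbxas1 (19.3 ± 2.30 in hyperoxia, 20.6 ± 2.74 in normoxia) also overlapped each other. Ptgs1 ranked 7th in both oxygen groups, at 12.3 ± 2.17 CPM per kb in hyperoxia and 4.53 ± 1.096 in normoxia. In normoxia its lowest library, at 2.82, lay within the range of Hpgds, 2.21 to 4.23 CPM per kb. Ptges, at 1.34 ± 0.36 in hyperoxia and 1.95 ± 0.48 in normoxia, and Ptgs2, at 0.0240 ± 0.0194 in hyperoxia and 0.0428 ± 0.0429 in normoxia, were the lowest. With the longest transcript as length, Lta4h stood at 39.6 CPM per kb in hyperoxia and 42.7 in normoxia, Tbxas1 at 38.5 in hyperoxia and 41.1 in normoxia, and Hpgds at 4.90 in hyperoxia and 5.28 in normoxia. On that length Alox5, at 55.1 CPM per kb in hyperoxia, stood below Ltc4s, at 60.5, while the other ranks were kept.

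**Figure D3:**
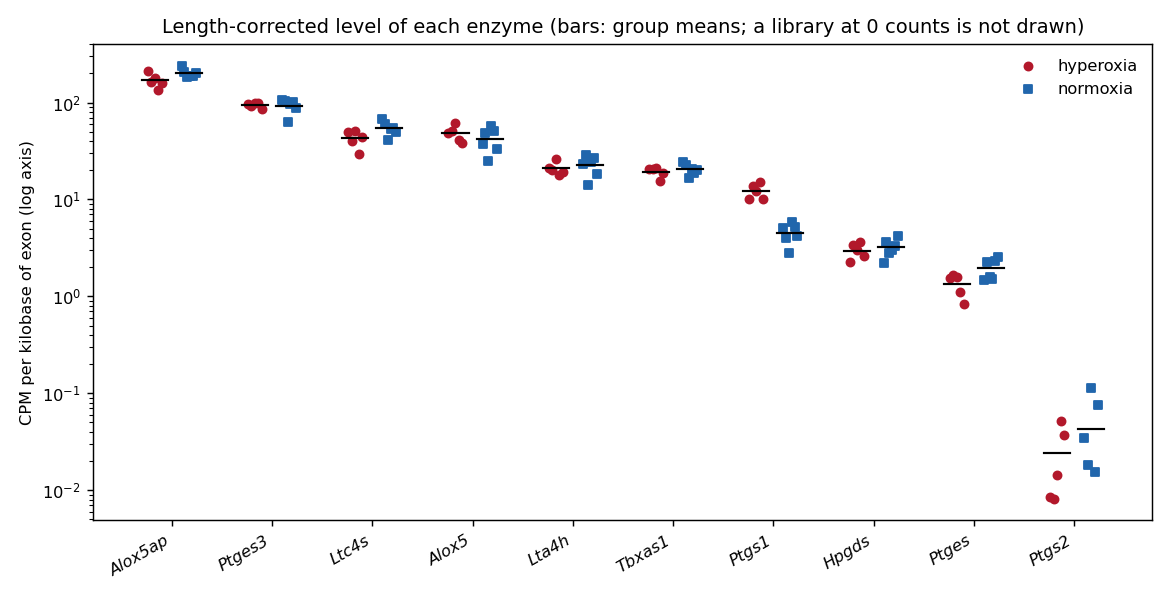
Levels per exon length (CPM per kilobase, log axis) of the 10 enzymes in hyperoxia and normoxia libraries, with 1 point per library, a bar at each group mean and the normoxia library at 0 Ptgs2 counts not drawn. Alox5ap is highest in both, with means of 169 CPM per kb in hyperoxia and 200.5 in normoxia, and Ptgs2 lowest.

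As a sum per kilobase, Alox5, Alox5ap, Ltc4s and Lta4h came to 281 ± 43.1 CPM per kb in hyperoxia (SD, n = 5) and 320 ± 35.5 in normoxia (SD, n = 6), with overlapping ranges of 224 to 331 and 263 to 368. The cyclooxygenase pair came to 12.3 ± 2.17 CPM per kb in hyperoxia and 4.57 ± 1.06 in normoxia. The 4 terminal prostanoid synthases came to 118 ± 6.03 in hyperoxia and 119 ± 18.4 in normoxia. Most of that sum was Ptges3, at 94.6 CPM per kb in hyperoxia and 93.0 in normoxia, so it says little of the other 3 synthases.

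Within a library, the ratio of Ptgs1 to Tbxas1 per kilobase was 0.649 ± 0.189 in hyperoxia (range 0.494 to 0.965) and 0.220 ± 0.0488 in normoxia (range 0.167 to 0.284). The ratio of Ptgs1 to Alox5 was 0.262 ± 0.0647 in hyperoxia (range 0.202 to 0.363) and 0.111 ± 0.0199 in normoxia (range 0.0818 to 0.137). Neither range overlapped between the oxygen groups. The share of gene pairs with such a gap was not computed and both ratios hold Ptgs1, so nothing is read from these gaps. The ratio of Alox5ap to Alox5, both parts of leukotriene A4 synthesis, was 3.58 ± 0.62 in hyperoxia (range 2.92 to 4.31) and 5.18 ± 1.69 in normoxia (range 3.25 to 7.38), and these ranges overlapped.

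The sexes were compared within each oxygen group. None of the 9 tested enzymes differed between females and males past the threshold in edgeR's quasi-likelihood test, in normoxia or in hyperoxia, beside 0.0251% of all genes called in each of these contrasts. At an unadjusted p under 0.05 the count of enzymes was also 0 in both, beside 3.63% of all genes in normoxia and 1.73% in hyperoxia, and 0 passed DESeq2. The smallest p in normoxia was that of Ptgs1, at 19.7 ± 3.35 CPM in females and 15.4 ± 4.48 CPM in males (SD, n = 3 each), a log2 fold change of 0.36 ± 0.25 (SE, edgeR adjusted p = 0.851). In hyperoxia Ptgs1 was at 48.4 ± 9.60 CPM in females (SD, n = 3) and 46.5 ± 9.74 CPM in males (SD, n = 2), a log2 fold change of 0.06 ± 0.27 (SE).

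Alox5 in normoxia was at 194 ± 52.1 CPM in females and 151 ± 48.9 CPM in males, a log2 fold change of 0.36 ± 0.29 (SE, edgeR adjusted p = 0.851). The smallest p in hyperoxia was that of Ptges, at 4.601 ± 1.49 CPM in females and 6.27 ± 0.28 CPM in males, a log2 fold change of -0.45 ± 0.31 (SE, edgeR adjusted p = 1.0). A p that misses the threshold does not show that the sexes are alike, and the standard errors above give the size of difference that could be missed.

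The interaction, the female response to hyperoxia minus the male response, asks whether the sexes responded alike. Among the enzymes 0 of 9 passed edgeR's quasi-likelihood test, 0 had an unadjusted p under 0.05, and 0 passed DESeq2. Over all genes 0% were called, and 1.67% had an unadjusted p under 0.05. For Ptgs1 it was -0.30 ± 0.37 (SE, edgeR adjusted p = 1.0) and for Alox5 -0.44 ± 0.43 (SE, edgeR adjusted p = 1.0). The largest in size was that of Ptges, -0.70 ± 0.42 (SE, edgeR adjusted p = 1.0). All 9 values were below 0, with a median of -0.12, against 0.01 over all genes, and without the 4 libraries of many detected genes those of Alox5ap, Ltc4s, Lta4h, Tbxas1 and Ptges3 were above 0.

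Among the libraries of a group, some enzymes varied more than others. The coefficient of variation was 18.4% in hyperoxia and 29.5% in normoxia for Alox5, 16.5% in hyperoxia and 10.6% in normoxia for Alox5ap, and 11.9% in hyperoxia and 13.3% in normoxia for Tbxas1. After subtracting the group means of log2 CPM, Alox5 and Lta4h moved together over the 11 libraries (Pearson r = 0.945, Spearman rho = 0.955). Ltc4s and Tbxas1 did so too (r = 0.930, rho = 0.845), as did Alox5ap and Ltc4s (r = 0.868, rho = 0.864). The lowest of the pairs was Alox5ap with Hpgds (r = -0.564, rho = -0.564). These are descriptions over libraries that share depth and composition. Alox5 and Lta4h were below their group means in 4 of the 4 libraries with most detected genes, Alox5 by -0.52 in NM3, -0.48 in NF3, -0.26 in HF3 and -0.15 in HF2 on the log2 scale. Whether the makeup of these libraries has a part in this was not tested.

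**Figure D4:**
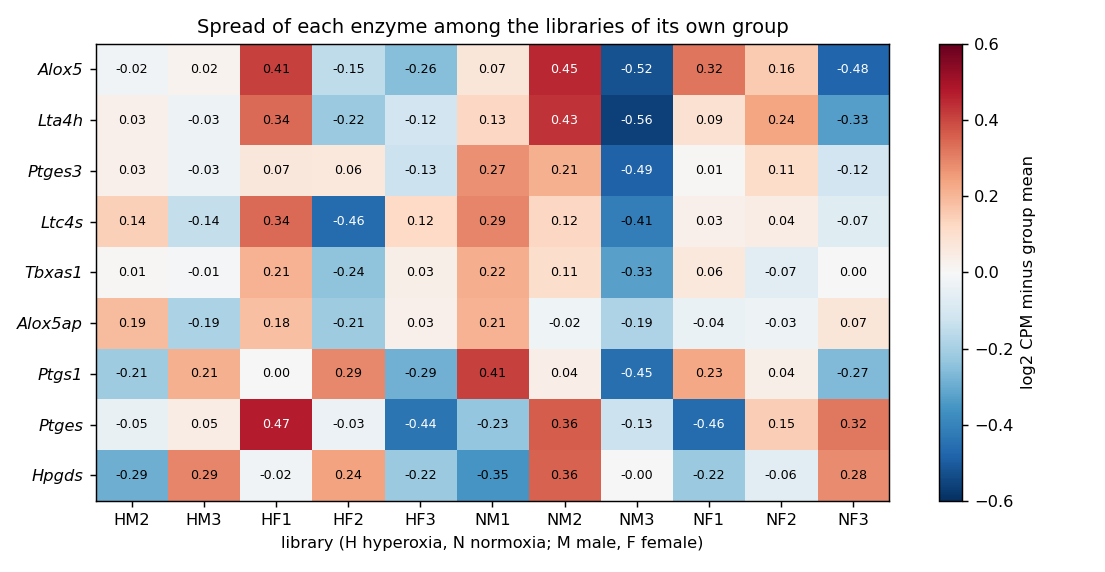
Deviation of log2 CPM from the group mean, as color and printed value, for the 9 tested enzymes (rows) in each library (columns). The rows of Alox5 and Lta4h are alike (r = 0.945), and both are below 0 in NM3, NF3, HF2 and HF3.

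By Pearson r of log2 CPM over the 11 libraries, the genes whose levels were most like those of Ptgs1 among 11245 genes were Arhgap10 (r = 0.985, rho = 0.982), Ecm1 (r = 0.980, rho = 0.955), Vav3 (r = 0.965, rho = 0.964), P2ry12 (r = 0.964, rho = 0.982) and Bdh1 (r = 0.963, rho = 0.909). Without the libraries farthest from the Ptgs1 median, HF2 and HM3, r was 0.943 to 0.986 for these 5. After the group means were subtracted the nearest were Eps8 (r = 0.969), Pram1 (r = 0.968), Alg11 (r = 0.957), Gm4316 (r = 0.954) and Socs3 (r = 0.952), and no gene was in both sets.

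The other 63 genes of the eicosanoid pathway were listed by role, and 51 passed the filter on low counts. Between hyperoxia and normoxia over both sexes, 0 of the 51 passed edgeR's quasi-likelihood test, 7 had an unadjusted p under 0.05, and 0 passed DESeq2. Over all genes 0.707% were called and 8.13% had an unadjusted p under 0.05. Of the 51, 22 log2 fold changes were above 0, with a median of -0.07.

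The smallest p was that of Ptgr1, prostaglandin reductase 1, which inactivates leukotriene B4 and prostaglandins. It had 30.1 and 24.5 CPM in HM2 and HM3 and 21.2, 26.0 and 25.2 CPM in HF1 to HF3, against 21.8, 14.1 and 13.1 CPM in NM1 to NM3 and 13.4, 10.5 and 22.8 CPM in NF1 to NF3. The ranges overlapped through NM1, NF3 and HF1. The log2 fold change was 0.69 ± 0.20 (SE, edgeR adjusted p = 0.164), and without NF3 it was 0.88 (edgeR adjusted p = 0.0170). Each library left out in turn gave 0.55 to 0.88, and only the omission of NF3 put Ptgr1 past the test.

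Mgst2, a microsomal glutathione transferase that can make leukotriene C4, averaged 8.62 ± 1.26 CPM in hyperoxia (SD, n = 5) and 5.31 ± 2.15 CPM in normoxia (SD, n = 6). Its log2 fold change was 0.71 ± 0.25 (SE, edgeR adjusted p = 0.309), and without NF3 it was 0.996 (edgeR adjusted p = 0.0261). Left out in turn, the libraries gave 0.56 to 0.996, and only the omission of NF3 put Mgst2 past the test. Aloxe3, an epidermal lipoxygenase, averaged 2.30 ± 0.54 CPM in hyperoxia and 3.67 ± 1.11 CPM in normoxia, a log2 fold change of -0.73 ± 0.26 (SE, edgeR adjusted p = 0.327).

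By role, in the arachidonate release list 1 of 9 tested genes had a log2 fold change above 0 (median -0.14), and Pla2g4a, the cytosolic phospholipase A2 that supplies most eicosanoid synthesis, was at 56.8 ± 2.88 CPM in hyperoxia and 51.0 ± 6.70 CPM in normoxia. Among other prostanoid synthases 1 of 5 was above 0 (median -0.37), among other lipoxygenases 3 of 5, and on the cysteinyl leukotriene side 2 of 7 (median -0.14). Among prostanoid receptors 3 of 8 were above 0 (median -0.18), among leukotriene and pro-resolving receptors 4 of 7 (median 0.53), in breakdown and transport 6 of 7 (median 0.22) and in the epoxygenase branch 2 of 3. Genes with at most 50 counts in every library made up 14 of the 51, among them 4 of the 5 lipoxygenases, 4 of the 8 prostanoid receptors and 2 of the 3 epoxygenase genes, so the directions in those lists rest on few counts. None of these lists held a gene past the test.

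**Figure D5:**
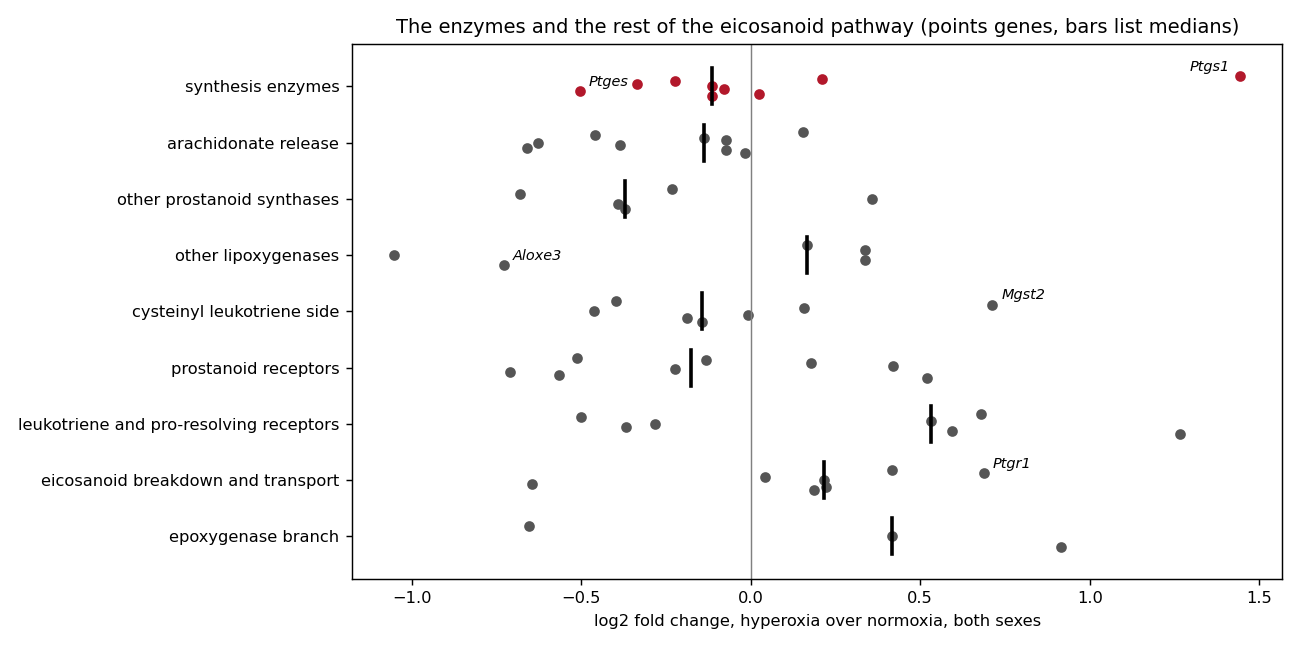
Fitted log2 fold change of hyperoxia over normoxia over both sexes (horizontal axis) for the 9 tested enzymes and the 51 other tested pathway genes, 1 point per gene, with a bar at each list's median. Ptgs1 stands at 1.44, and the breakdown and transport list has 6 of its 7 points above 0.

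Per kilobase of exon and averaged over all libraries, the most abundant genes of each list were Pla2g15 (52.3 CPM per kb) and Mgll (19.95) for release, Akr1b3 (21.3) and Cbr1 (7.03) for prostanoid synthases, and Aloxe3 (0.477) and Alox15 (0.116) for lipoxygenases. Cotl1, which binds 5-lipoxygenase, stood at 1178 CPM per kb and Mgst1 at 41.2 on the cysteinyl leukotriene side. Ptger4 (3.47) and Ptger2 (2.91), both receptors of prostaglandin E2, led the prostanoid receptors, and Fpr2 (66.8) and Cysltr1 (1.43) the leukotriene and pro-resolving receptors. Cyp4f18 (20.8) and Hpgd (11.4) led breakdown and transport, and Ephx1 (1.33) and Ephx2 (0.266) the epoxygenase branch.

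Within males 0 of the 51 genes passed edgeR's test or DESeq2 and 4 had an unadjusted p under 0.05, beside 0.0401% of all genes called and 5.5% at that unadjusted p. The 3 smallest p in males were those of Aloxe3 (-1.13 ± 0.40, SE), Ptgr1 (0.74 ± 0.30) and Cysltr1 (0.67 ± 0.30), with log2 fold changes in brackets. Within females 0 passed either tool and 3 had an unadjusted p under 0.05, beside 0.0401% of all genes called and 4.53% at that unadjusted p. These 3 were Ptgr1 (0.63 ± 0.27, SE), Mgst2 (0.79 ± 0.34) and Ptgir (-0.76 ± 0.32), the prostacyclin receptor. In the interaction 0 passed edgeR's test or DESeq2 and 1 had an unadjusted p under 0.05, beside 1.67% of all genes. That gene was Alox12b, which had at most 11 counts in a library, so no fold change is given. In the comparisons of females with males 0 passed either tool and 0 had an unadjusted p under 0.05, in normoxia or in hyperoxia.

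Markers of other cells were read in the same libraries. All 9 epithelial markers were tested, and their summed level was 386 to 472 CPM in hyperoxia and 188 to 365 CPM in normoxia, without overlap, with 6 of 9 log2 fold changes above 0 and 0 called. Cdh1 supplied 260 to 394 CPM of it in hyperoxia and 101 to 273 CPM in normoxia, and the other 8 markers summed to 70.3 to 145 CPM in hyperoxia and 46.9 to 92.5 CPM in normoxia, which overlap. The 8 monocyte markers summed to 153 to 278 CPM in hyperoxia and 112 to 189 CPM in normoxia, with 7 of 8 above 0 and 0 called. The 6 interstitial macrophage markers summed to 19.8 to 91.8 CPM in hyperoxia and 14.96 to 32.3 CPM in normoxia, with 5 of 5 tested above 0 and 0 called. Dendritic cell markers summed to 5.17 to 15.7 CPM in hyperoxia and 4.21 to 10.7 CPM in normoxia, and T, NK and B cell markers to 6.60 to 11.7 CPM in hyperoxia and 4.29 to 9.55 CPM in normoxia. Log2 fold changes were above 0 for 6 of 6 dendritic cell markers and 6 of 8 tested T, NK and B cell markers, with 0 called. The sums of endothelial (98.7 to 148 CPM in hyperoxia, 114 to 190.0 CPM in normoxia), mesenchymal (19.4 to 56.4 CPM in hyperoxia, 27.5 to 68.5 CPM in normoxia) and erythroid markers (52.2 to 302 CPM in hyperoxia, 101 to 1200 CPM in normoxia) overlapped too. Their log2 fold changes were above 0 for 0 of 7 endothelial, 2 of 8 mesenchymal and 0 of 6 erythroid markers, with 0 called. Vwf alone supplied 67.4 to 131 CPM of the endothelial sum in hyperoxia and 63.3 to 139 CPM in normoxia. HF2 had the highest monocyte, interstitial macrophage and platelet sums and also the highest Ptgs1 level. In hyperoxia the monocyte sums fell in the order of the Ptgs1 levels, from HF2 (278 CPM) to HM3 (201), HF1 (197), HM2 (191.5) and HF3 (153). The interstitial macrophage and platelet sums did not follow that order. The monocyte sum of HF3 lay below that of NF1, while its Ptgs1 level lay above. In normoxia NF1 had the highest Ptgs1 level, with the highest monocyte sum (189 CPM) and the lowest platelet sum (1.72 CPM). NM3 had the lowest Ptgs1 level there, with the lowest monocyte sum (112 CPM) and the highest platelet sum (9.08 CPM). Among normoxia libraries the monocyte sums and Ptgs1 levels had the same order, except that NF3 (168.5 CPM) and NM1 (161 CPM) changed places. The interstitial macrophage sum in normoxia was highest in NM1. Whether the monocyte sums and the Ptgs1 levels are linked was not tested.

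Platelets make much cyclooxygenase-1 and thromboxane synthase. The 10 platelet and megakaryocyte markers summed to 3.62 to 11.7 CPM in hyperoxia and 1.72 to 9.08 CPM in normoxia, which overlap, and none was at 0 in all libraries. Among them 3 were tested, with 3 log2 fold changes above 0, a median of 0.49 and 0 called. Ppbp, among the most abundant platelet transcripts, had 19 counts in HF2 and at most 2 in every other library, under the floor of 3 counts. Mast cells, basophils and eosinophils, which carry Hpgds or Ltc4s, had markers summing to 2.26 to 4.15 CPM in hyperoxia and 0.750 to 8.57 CPM in normoxia. Of their 4 tested markers 3 log2 fold changes were above 0, with 0 called. Neutrophil markers, 9 of 11 tested, summed to 51.7 to 61.0 CPM in hyperoxia and 41.7 to 74.4 CPM in normoxia, with 5 log2 fold changes above 0, 1 called higher and Ly6g at 0 in all libraries. Much of that sum was Csf3r (10.2 to 19.0 CPM in hyperoxia, 17.7 to 50.3 CPM in normoxia) and Mmp8 (18.6 to 25.7 CPM in hyperoxia, 6.09 to 17.2 CPM in normoxia). The part of these cells in the Ptgs1 levels was not tested. As a description of how the value depends on the libraries, the Ptgs1 log2 fold change over both sexes was 1.37 without HF2. It was 1.28 without the 4 libraries of many detected genes. Neither fit tests the part of these cells.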

How the data were processed

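The authors deposited raw, whole-number read counts for each Ensembl identifier in each library. According to the labels' protocols, total RNA of sorted cells was made into low-input full-length cDNA libraries, with 8-base molecular identifiers trimmed. Whether these were used to collapse duplicates, and whether counting used strand, is not given in the sources used here. Per the submitters' processing notes, STAR 2.7.9 and Salmon 1.10.1 were among the tools, next to Trim Galore 0.6.7, DESeq2 1.42 and R 4.3.2, and the build was mm39.

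Symbols matched 51884 of 57180 identifiers. Testing used edgeR 4.0.16 (under R 4.3.3). Its expression filter (minimum count 10, total 15) kept 19948 genes, libraries were scaled by TMM, and a robust quasi-likelihood model with 1 mean for each of the groups took in all 11 libraries. Adjusted p-values are Benjamini-Hochberg values over all genes tested, with a threshold of 0.05. The procedure was tested on simulated data. SE come from the F statistic of that model, and log2 CPM used a prior count of 2. CPM per kilobase used exon lengths from GENCODE M21, on another build than the counts, so no coordinates are given but those of the RefSeq promoters on GRCm38.p6. Totals of 18087948 to 32579468 counts set the precision, and floors of 3 counts cover counting error only. Replicates differed by more than sampling noise, so each counts as 1 sample.

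The 10 enzymes and all gene lists were chosen with earlier results of these data known, and the promoter motifs after the sequences were seen. Named genes were all 10 enzymes, the other pathway genes past the test or the 3 of smallest p per contrast, the 2 most abundant per list, and the 5 most like Ptgs1 among 11245 genes with a mean log2 CPM of at least 1. Pla2g4a was named after its values were seen. Alternatives were no filter, DESeq2 size factors, DESeq2 1.42.0, a replicate block, leaving out each library, leaving out the 4 libraries with most genes detected, and the longest transcript as length.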

Additional observations from a re-analysis of the deposited data

How the results depend on the processing

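Genes called in hyperoxia minus normoxia over both sexes numbered 141, and 302 with no filter on low counts, 256 with the replicate block, 23 without the 4 libraries with most genes detected, 448 with DESeq2, and 36 to 195 without 1 library (80 when NF2 was left out, 65 for NF1, 63 for HF2, 48 for HM2 and 36 for HM3). In the same order of settings, the 8 calls in males became 83, 21, 16 and 89, and 0 to 19 without 1 library, and the 8 in females became 96, 23, 2 and 95, and 0 to 24. Interaction calls numbered 0, and 6 with no filter, 1 without the 4 libraries, 3 with DESeq2 and 0 to 1 without 1 library. Female minus male in normoxia gave 5, and 30 with no filter, 11 without the 4 libraries, 13 with DESeq2 and 5 to 12 without 1 library, and in hyperoxia 5, and 40 with no filter, 10 with the replicate block, 24 with DESeq2 and 5 to 8 without 1 library. Other pathway genes past the test over both sexes numbered 0, and 1 with no filter (Ptgr1, 0.68, edgeR adjusted p = 0.0366) and 0 to 2 without 1 library (Ptgr1 and Mgst2 without NF3). The replicate numbers were not taken as pairs, since the labels give them no meaning and not every same-numbered pair was over 0.1. The 2 HM libraries mirror each other and cannot inform this. Among the other groups, deviations of the 9 same-numbered pairs correlated at -0.27 to 0.61, with 7 over 0.1 (3 of 3 for number 2, 3 of 3 for number 3, 1 of 3 for number 1), against 5 of 18 other pairs, and 4 of 9 libraries correlated best with their own number in both other groups.

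Some of the small interaction and sex differences of the enzymes changed sign with the libraries or the setting used, none of them past the test, and the cause was not tested. Without the 4 libraries the interaction was 0.18 for Alox5ap, 0.42 for Ltc4s, 0.35 for Lta4h, 0.30 for Tbxas1 and 0.15 for Ptges3, female minus male in normoxia was -0.0041 for Lta4h and -0.089 for Ptges3, and in hyperoxia it was 0.28 for Alox5, 0.17 for Ltc4s, 0.041 for Tbxas1 and 0.070 for Pla2g12a. With the replicate block it was, in hyperoxia, -0.074 for Ptgs1, -0.068 for Lta4h and -0.059 for Ptges3, and with no filter -0.0051 for Ptges3. Without 1 library the interaction ranged between -0.32 and 0.061 for Alox5ap, -0.20 and 0.18 for Ltc4s, -0.29 and 0.15 for Lta4h, -0.16 and 0.085 for Tbxas1, -0.21 and 0.12 for Ptges3, and -0.45 and 0.14 for Hpgds. Female minus male in normoxia ranged between -0.26 and 0.059 for Ltc4s, -0.12 and 0.32 for Lta4h, -0.23 and 0.012 for Tbxas1, and -0.12 and 0.21 for Ptges3. In hyperoxia it ranged between -0.15 and 0.28 for Ptgs1, -0.32 and 0.039 for Alox5, -0.30 and 0.075 for Ltc4s, -0.16 and 0.14 for Lta4h, -0.032 and 0.066 for Ptges3, -0.15 and 0.44 for Hpgds, and -0.75 and 0.076 for Ptges2. Groups of 2 or 3 libraries limit what the sex contrasts can show.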

Other observations

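The branch point after leukotriene A4 was read as the ratio of Ltc4s to Lta4h per kilobase, which was 2.04 ± 0.28 in hyperoxia (SD, n = 5) and 2.48 ± 0.42 in normoxia (SD, n = 6). Per kilobase, the synthase of cysteinyl leukotrienes was thus higher than the hydrolase that makes leukotriene B4 in both oxygen groups. With the longest transcript as length, the hyperoxia means were 60.5 CPM per kb for Ltc4s and 39.6 for Lta4h. The normoxia means were 77.0 for Ltc4s and 42.7 for Lta4h, so the size of the ratio depends on the length used. The ratio of Ptgs1 to Ltc4s was 0.306 ± 0.127 in hyperoxia (range 0.206 to 0.514) and 0.0833 ± 0.0170 in normoxia (range 0.0663 to 0.110), without overlap. Here too the share of gene pairs with such a gap was not computed, so nothing is read from it.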
